A study of Triticum aestivum with 12 samples.

Results

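In the 12 RNA-seq libraries of winter wheat examined here, 4 homoeologue triads had 1 member listed at 0 TPM (length-scaled transcript abundance that sums to the same total in each library) in every library while both other members were expressed. A triad is a set of 3 homoeologues, 1 from each of the A, B and D sub-genomes of bread wheat. The members were chosen from measured TPM: exactly 1 homoeologue at 0 TPM in all 12 libraries, and each of the others reaching a group mean of 5 TPM or more in any of the 6 groups. Of 1986 distinct triads listed in the copy of the study's triad table used here, 4 met this rule (0.201%), and they hold 4 silent and 8 active homoeologues. The A homoeologue was the silent one in 2 triads, the B homoeologue in 1 and the D homoeologue in 1. All values at 0 and all best group means below are therefore a description and carry no test.

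The libraries came from leaf, axillary bud and shoot apex of the cultivar AK58, sampled without and with vernalization, which makes 6 groups of 2 libraries. Non-vernalized plants were grown for 2 weeks under 16 h of light at 22 °C and 8 h of dark at 19 °C. Vernalized plants spent 1 month at 4 °C, also under 16 h of light and 8 h of dark, and then 1 day in the greenhouse. They were thus also older, and cold and age cannot be told apart. Axillary bud and shoot apex are small dissected organs that contain meristems, while leaf was collected directly. The tissue labels were not checked against marker genes, because the gene identifiers carry no names in the tables used here. For the same reason no function is given for any of the 12 genes.

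Bread wheat is an allohexaploid, in which related chromosome sets were brought together by hybridization, so most genes exist as homoeologous copies. The copies of a triad often share their expression pattern, but a copy can also be lost, silenced, or expressed in a different set of tissues. An expressed pair beside a silent copy therefore offers a view of how the remaining copies divide the expression of a gene. Chromosome 4A of bread wheat carries a segment that was translocated from chromosome 5A, which is why some of its genes have their homoeologues on 5B and 5D. Whether a given triad lies in this segment was not tested. All A identifiers of the listed triads were on 4A: 1611 triads ran over 4A, 4B and 4D, 286 over 4A, 5B and 5D, 55 over 4A, 4B and 5D, and 34 over 4A, 5B and 4D. Triads with an A homoeologue on other chromosomes were not analysed here.

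Of the 1986 triads, 1783 had no homoeologue at 0 in all libraries, 91 had 1, 62 had 2 and 50 had all 3. Among the 91 triads the silent homoeologue was A in 38, B in 32 and D in 21. These are counts of triads, and 226 of the 5702 distinct identifiers occurred in more than 1 triad. Some silent genes, such as TraesCS4A02G185900, therefore count more than once among the 91. Counted over distinct identifiers, 121 of 1870 A genes (6.47%), 122 of 1905 B genes (6.40%) and 105 of 1927 D genes (5.45%) were at 0 throughout, against 20.8% of all 107891 genes. A silent copy was usually accompanied by copies that were hardly expressed. In 83 of the 91 triads neither of the other homoeologues reached 5 TPM, in 4 only 1 of them did, and in 4 both did. The median best group mean of the lower of the other homoeologues was 0.0435 TPM over the 91 triads. With 4 member triads, the silent copies cannot be assigned to a preferred sub-genome.

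**Figure D1:**
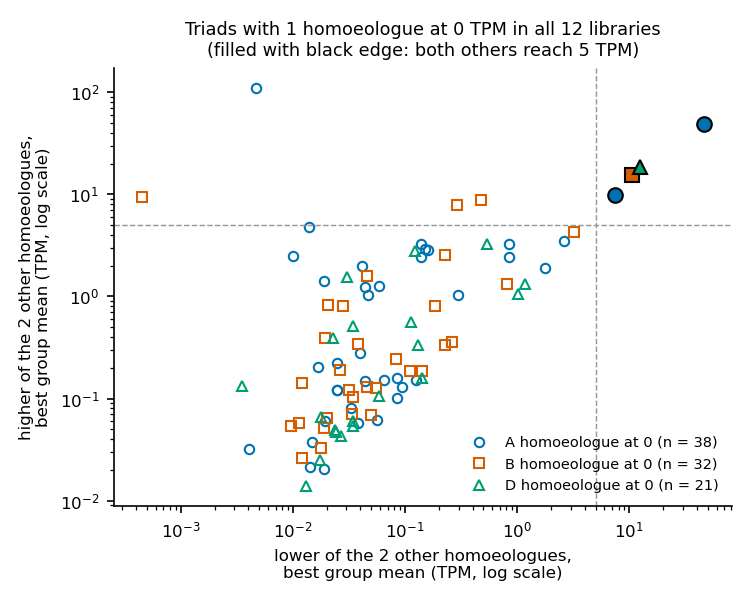
Each point is 1 of the 91 triads with exactly 1 homoeologue at 0 TPM in all 12 libraries, placed by the best group means (TPM, log scales) of the lower and the higher of the other homoeologues; dashed lines mark 5 TPM and shapes give the silent sub-genome (A 38, B 32, D 21). The 4 filled points at the upper right are the member triads, and most of the others lie below 1 TPM on the horizontal axis.

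The threshold of 5 TPM left a gap around the members. The member with the lowest active homoeologue stood at 7.47 TPM (TraesCS5D02G145200), whereas the nearest triad outside had a silent B copy, TraesCS4B02G226200, and 3.21 TPM for the lower of its active copies. In all, 5 triads had a silent copy and other copies that reached between 1 and 5 TPM. On the side of the silent copy, 5 triads missed the rule because the lowest copy was above 0 but below 0.1 TPM in its highest library. The closest of these was TraesCS4B02G221600, which was above 0 in 1 library only, at 0.0116 TPM, while its homoeologues reached 16.9 and 19.6 TPM. TPM values keep no read depth, so no detection limit can be attached to a 0, and silent means listed at 0 here. How reads that match several homoeologues were assigned is not given in the sources used here, so the split between near-identical copies is uncertain. Whether AK58 carries the silent copies was not tested, since the reads were aligned to the reference genome IWGSC RefSeq v1.0.

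The first triad was the leaf-high triad, with TraesCS4A02G103700 silent on 4A. Its B homoeologue TraesCS4B02G200000 had 49.7 and 42.7 TPM in leaf, and 8.21 and 8.02 TPM in vernalized leaf. In axillary bud it had 5.67 and 5.75 TPM, and in vernalized axillary bud 3.48 and 3.18 TPM. In shoot apex it had 1.67 and 1.19 TPM, and in vernalized shoot apex 3.22 and 2.69 TPM. Leaf stood far above all other groups, and the only neighbouring groups of this order whose libraries overlapped were vernalized axillary bud and vernalized shoot apex. The D homoeologue TraesCS4D02G201100 had 52.5 and 46.2 TPM in leaf, and 8.52 and 6.60 TPM in vernalized leaf. In axillary bud it had 2.25 and 2.53 TPM, and in vernalized axillary bud 3.05 and 2.75 TPM. In shoot apex it had 2.90 and 2.03 TPM, and in vernalized shoot apex 5.20 and 4.70 TPM. For this copy too leaf came first and vernalized leaf second, while shoot apex overlapped with both axillary bud groups.

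The second triad was the shoot apex triad, with TraesCS4B02G188400 silent on 4B. Its A homoeologue TraesCS4A02G115600 had 14.1 and 16.5 TPM in shoot apex, and 8.03 and 8.42 TPM in vernalized shoot apex. In axillary bud it had 1.45 and 1.33 TPM, and in vernalized axillary bud 2.31 and 2.95 TPM. In leaf it was listed at 0 in one library and at 0.0752 TPM in the other, and in vernalized leaf it had 0.907 and 0.714 TPM. None of the 6 groups overlapped with another for this gene. The D homoeologue TraesCS4D02G189800 had 10.1 and 11.1 TPM in shoot apex, and 7.16 and 7.40 TPM in vernalized shoot apex. It had 0.785 and 1.17 TPM in axillary bud, and 2.22 and 1.73 TPM in vernalized axillary bud. In leaf it was listed at 0 in both libraries, but in vernalized leaf it had 6.16 and 4.16 TPM. The D copy thus ranked directly below the shoot apex groups in vernalized leaf, where the A copy stood below 1 TPM.

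The third triad was seen in the vernalized axillary bud alone. Its A homoeologue TraesCS4A02G194300 was silent, and both active homoeologues were listed at 0 in the 10 libraries of the other 5 groups. In vernalized axillary bud the B homoeologue TraesCS5B02G146000 had 12.2 and 7.72 TPM. The D homoeologue TraesCS5D02G145200 had 7.50 and 7.44 TPM there. Because both copies met the rule through this single group, their difference from the other groups was built into the choice and was not tested, and no fold change is given against groups at 0. Identifiers of this triad also occurred in 3 other listed triads, in which they were combined with TraesCS4B02G121000 and TraesCS4D02G119000. These 2 genes were at 0 in all 12 libraries. With the copies on chromosomes 4B and 4D in place of those on 5B and 5D, the whole triad is listed at 0. It would then hold no expressed copy and would not meet the rule. In identifier order TraesCS4A02G194300 lies between TraesCS4A02G180700 and TraesCS4A02G295400, which were both listed with homoeologues on 4B and 4D. Which genes are the homoeologues of TraesCS4A02G194300 by position was not tested. Its count as a silent copy beside expressed copies therefore depends on the listing.

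The fourth triad was highest in vernalized axillary bud and shoot apex, with TraesCS5D02G549000 silent on 5D. Its A homoeologue TraesCS4A02G326300 had 11.9 and 13.1 TPM in vernalized axillary bud, but 0.901 and 1.07 TPM in axillary bud. It had 9.25 and 9.11 TPM in shoot apex, and 2.36 and 1.94 TPM in vernalized shoot apex. In leaf it had 4.18 and 3.68 TPM, and in vernalized leaf 0.868 and 0.949 TPM. Only the lowest groups of this order, axillary bud and vernalized leaf, overlapped. The B homoeologue TraesCS5B02G539200 had 20.1 and 17.2 TPM in vernalized axillary bud, but 1.72 and 1.41 TPM in axillary bud. It had 7.35 and 12.3 TPM in shoot apex, and 2.78 and 2.90 TPM in vernalized shoot apex. In leaf it had 1.87 and 1.72 TPM, and in vernalized leaf 0.553 and 0.302 TPM. Leaf and axillary bud overlapped at 1.72 TPM, and the shoot apex libraries were further apart than those of any other group of this gene.

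The silent D copy of the fourth triad depended on which D identifier was paired with it. The same A and B genes were also listed with TraesCS5D02G557400, and this second D gene was expressed. It had 18.7 and 19.6 TPM in vernalized axillary bud, and 12.4 and 11.7 TPM in shoot apex. It had 6.82 and 2.80 TPM in leaf, 1.45 and 0.227 TPM in vernalized leaf, 2.00 and 4.07 TPM in axillary bud, and 4.23 and 3.47 TPM in vernalized shoot apex. Its 2 highest groups were thus those of the A and B copies. Without triads that share an identifier with another listed triad, 2 of the 4 members were left, the leaf-high triad with a silent A copy and the shoot apex triad with a silent B copy.

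**Figure D2:**
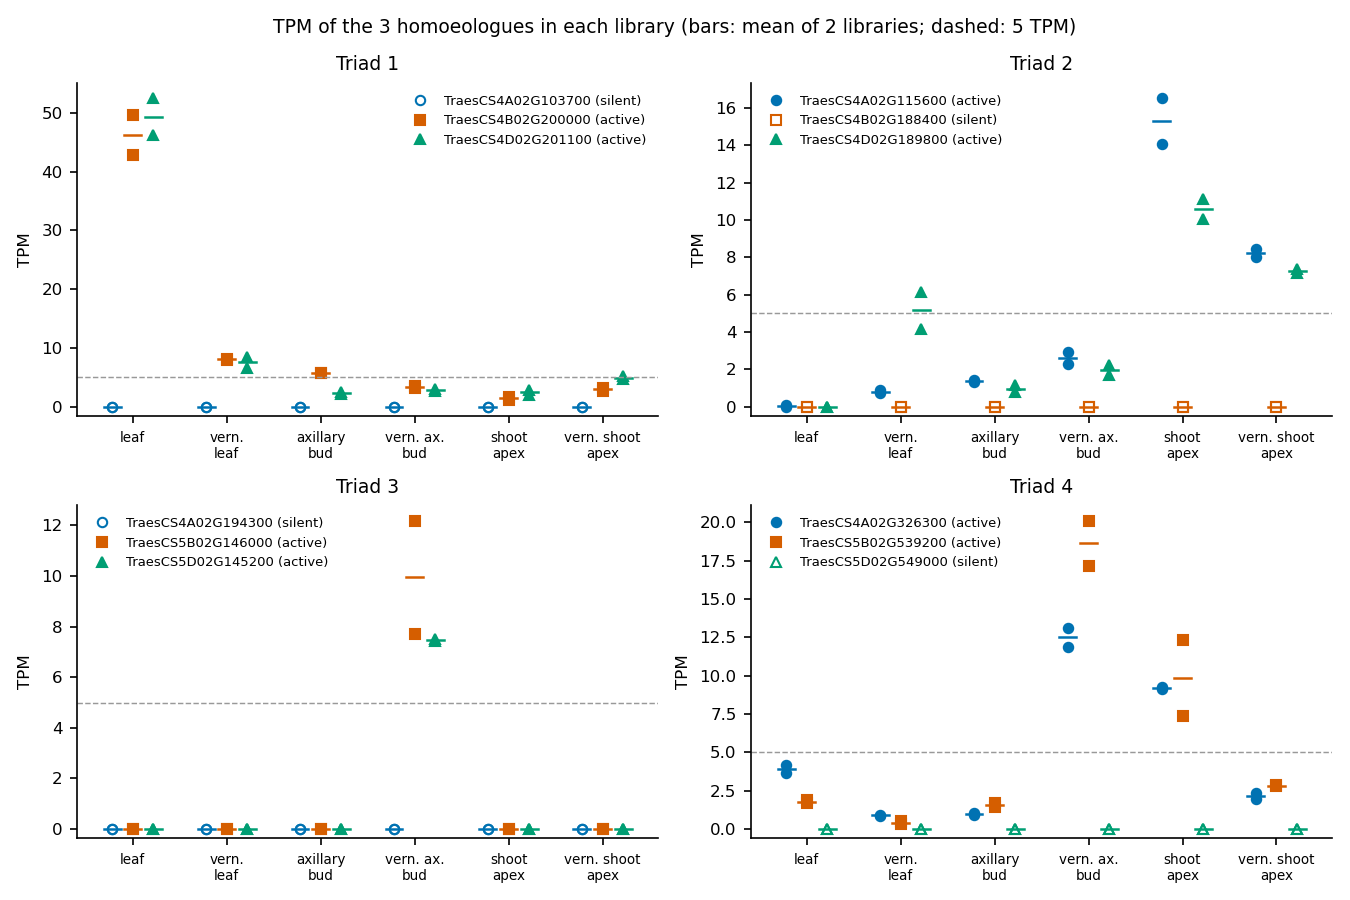
TPM of the 3 homoeologues of each member triad in every library (points; 2 per group) with the group means (short bars); blue circles, orange squares and green triangles are the A, B and D copies, open symbols are the silent copies at 0 and the dashed line marks 5 TPM. The panels show the leaf-high triad 1 (up to 52.5 TPM), the shoot apex triad 2, triad 3 with both active copies seen in vernalized axillary bud alone, and triad 4 with its highest means in vernalized axillary bud (12.5 and 18.6 TPM).

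The response to vernalization was then compared within each tissue for the 6 active homoeologues that reached 5 TPM in more than 1 group. The rule chose these copies by high group means. A difference between a group at 5 TPM or more and a group below it is therefore partly built in. The p-values on such differences describe these copies and are no support for a tissue or cold pattern. The limma model of log2(TPM + 1) was fitted to the 60326 genes that exceeded 1 TPM on average in any group, and a change was called at a Benjamini-Hochberg adjusted p-value under 0.05 and above 2-fold. On this scale the fold changes of weakly expressed genes come out too small. With 2 libraries per group, which the study calls biological replicates, these p-values measure the spread between libraries. In these bulk samples fewer cells of a type and less RNA per cell cannot be told apart.

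In leaf, 3 of the 6 copies fell and 1 rose with vernalization, while 46.6% of all tested genes fell and 12.5% rose. After scaling the libraries by the median of ratios, 17.3% of genes fell and 23.6% rose, so the balance of the background turned with the scaling. Without this scaling, 1571 of 2582 genes fell and 342 rose in the triads in which all 3 homoeologues reached 5 TPM. In triads with 1 homoeologue detected but under 0.5 TPM in every group, 20 of the 36 active copies fell and 5 rose. Both copies of the leaf-high triad fell, TraesCS4B02G200000 by 2.37 (SE 0.21, adjusted p = 1.2e-06) and TraesCS4D02G201100 fell by 2.56 (SE 0.22, adjusted p = 1.06e-06) on the log2 scale. The median of all tested genes in leaf was −0.90, and it was −0.02 after median-of-ratios scaling. Under that scaling TraesCS4B02G200000 changed by −0.94 (adjusted p = 0.000612), just under 2-fold, and TraesCS4D02G201100 by −1.14 (adjusted p = 0.00024). Of the shoot apex triad, TraesCS4D02G189800 rose by 2.60 (SE 0.22, adjusted p = 1.06e-06). It was listed at 0 in leaf, so this value depends on the pseudocount and is no fold change. TraesCS4A02G115600 had a change of 0.80 (adjusted p = 0.00298), which was under 2-fold on the log2(TPM + 1) scale, and passed it after the other scaling (1.23). Of the fourth triad, TraesCS4A02G326300 fell by 1.37 (SE 0.20, adjusted p = 5.62e-05) and TraesCS5B02G539200 had a change of −0.97 (adjusted p = 0.00324), under 2-fold on that scale. The latter passed 2-fold without leaf replicate 2 (−1.01) and without vernalized leaf replicate 1 (−1.10). After the other scaling neither was called, at −0.39 (adjusted p = 0.118) and −0.28 (adjusted p = 0.502), so for this triad the call in leaf rested on the scaling. With a pseudocount of 0.1 in place of 1, all 6 copies were called in leaf, with TraesCS4A02G115600 at 2.77 (adjusted p = 2.44e-05) and TraesCS5B02G539200 at −1.89 (adjusted p = 0.00039).

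In axillary bud, 2 of the 6 copies rose and none fell, against 11.6% and 3.43% of all tested genes (6.34% and 5.4% after median-of-ratios scaling). Without this scaling, 298 of 2582 genes rose and 133 fell in the triads in which all 3 homoeologues reached 5 TPM. In triads with 1 homoeologue detected but under 0.5 TPM in every group, 12 of the 36 active copies rose and 2 fell. A rise in axillary bud is therefore not particular to triads with a silent copy. Both rising member copies belonged to the fourth triad: TraesCS4A02G326300 rose by 2.76 (SE 0.20, adjusted p = 1.76e-06) and TraesCS5B02G539200 by 2.94 (SE 0.25, adjusted p = 6.26e-06). Both vernalized libraries were above both others for each gene, and the calls were also made after median-of-ratios scaling (2.40 and 2.57). The copies of the shoot apex triad had smaller values of 0.60 (TraesCS4A02G115600, adjusted p = 0.0438) and 0.59 (TraesCS4D02G189800, adjusted p = 0.0706). In the leaf-high triad TraesCS4B02G200000 had a change of −0.63 (adjusted p = 0.0401), under 2-fold, and TraesCS4D02G201100 of 0.20 (adjusted p = 0.536).

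In shoot apex, 2 of the 6 copies fell and none rose, against 2.13% and 0.991% of all tested genes. In the triads in which all 3 homoeologues reached 5 TPM, 37 of 2582 genes fell and 18 rose. In triads with 1 homoeologue detected but under 0.5 TPM in every group, 1 of the 36 active copies fell and 3 rose. Again both member copies that were called belonged to the fourth triad: TraesCS4A02G326300 fell by 1.70 (SE 0.20, adjusted p = 0.000342) and TraesCS5B02G539200 by 1.46 (SE 0.25, adjusted p = 0.00422). The call on TraesCS5B02G539200, whose shoot apex libraries were 7.35 and 12.3 TPM, was lost when the 4 shoot apex libraries were fitted alone (−1.46, adjusted p = 0.105) and after median-of-ratios scaling (−1.40, adjusted p = 0.0508). TraesCS4A02G115600 of the shoot apex triad had a change of −0.82 (adjusted p = 0.0389), under 2-fold, and TraesCS4D02G189800 of −0.48 (adjusted p = 0.465). The leaf-high triad had values above 0, namely 0.71 (TraesCS4B02G200000, adjusted p = 0.094) and 0.79 (TraesCS4D02G201100, adjusted p = 0.0756).

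**Figure D3:**
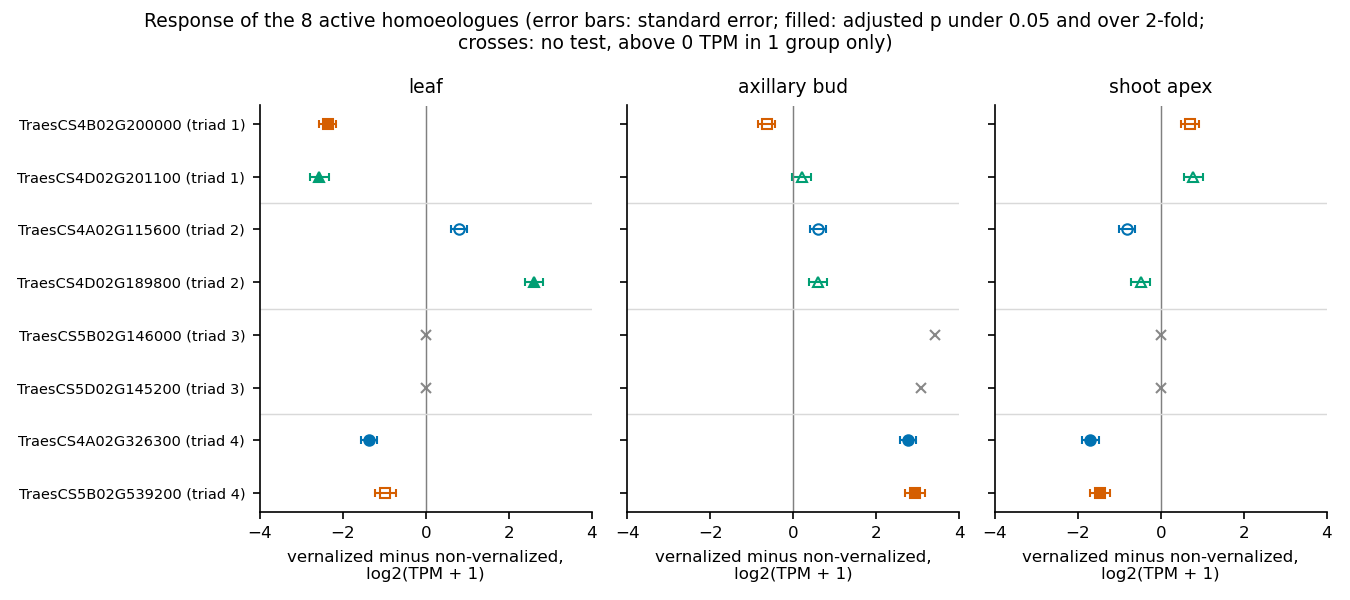
Log2 difference of TPM + 1 between vernalized and non-vernalized libraries (horizontal axis) for each of the 8 active homoeologues, with 1 panel per tissue; error bars are standard errors of the limma model, filled symbols were called, and grey crosses are the 2 copies of triad 3, which have no test. Triad 1 lies to the left in leaf (−2.37 and −2.56), and triad 4 lies to the right in axillary bud (2.76 and 2.94) and to the left in shoot apex (−1.70 and −1.46).

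The difference of the response between tissues was called in 14 of 18 comparisons. Between leaf and axillary bud it was lower in leaf for 4 copies and higher for 1, against 57% and 10.2% of all tested genes (18.4% and 21.9% after median-of-ratios scaling, which turned the balance). Between leaf and shoot apex it was lower in leaf for 2 and higher for 2, against 43.6% and 13.8% (18.1% and 24.2% after that scaling, again turned). Between axillary bud and shoot apex it was higher in axillary bud for 4 and lower for 1, against 13.2% and 3.2% (8.36% and 5.22%). The largest of these differences were in the fourth triad, whose response in axillary bud exceeded that in shoot apex by 4.46 (TraesCS4A02G326300, SE 0.28, adjusted p = 8.66e-07) and 4.39 (TraesCS5B02G539200, SE 0.35, adjusted p = 5.6e-06). With vernalization, both copies thus rose in axillary bud and fell in shoot apex, the tissues in which they were highest after and before the cold. Vernalized axillary bud and shoot apex are also the groups through which both copies met the rule. These differences are therefore partly built into the choice.

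Tissues also differed before vernalization, in 15 of 18 comparisons of the 6 copies. Leaf was above axillary bud for 3 copies and below it for 1, against 26% and 16.5% of all tested genes (15.5% and 22.4% after median-of-ratios scaling, which turned the balance). TraesCS4A02G326300 was among the 3 (1.31, adjusted p = 0.000109), and after median-of-ratios scaling its value was 0.82, under 2-fold. TraesCS4D02G189800 had a value of −0.98 here, which passed 2-fold without axillary bud replicate 1 (−1.12) and with a pseudocount of 0.1 (−3.40). Leaf was above shoot apex for the 2 copies of the leaf-high triad and below it for the other 4, against 29.8% and 19.6% (17.1% and 27.9% after that scaling, again turned). The difference of TraesCS4A02G326300 was −1.05 (adjusted p = 0.000499) and fell short of 2-fold without leaf replicate 2 (−0.97). In the leaf-high triad the log2 difference between leaf and shoot apex was 4.28 (TraesCS4B02G200000, SE 0.21, adjusted p = 7.79e-09) and 3.87 (TraesCS4D02G201100, SE 0.22, adjusted p = 2.37e-08). In the shoot apex triad it was −3.97 (TraesCS4A02G115600, SE 0.20, adjusted p = 1.02e-08) and −3.53 (TraesCS4D02G189800, SE 0.22, adjusted p = 5.39e-08). In each of these triads 1 of the compared tissues held the high means that met the rule, so these differences are partly built into the choice. Axillary bud was above shoot apex for TraesCS4B02G200000 alone (1.47, adjusted p = 0.000239) and below it for 4 copies, against 8.22% and 8.81% of all tested genes (6.68% and 10.7% after that scaling). Its D partner TraesCS4D02G201100 had a log2 difference of −0.02 between the same tissues (adjusted p = 0.974).

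After vernalization, tissues differed in 13 of the 18 comparisons. Leaf was above axillary bud for 3 copies and below it for 3, against 14.7% and 50.1% of all tested genes (25.1% and 29.3% after median-of-ratios scaling). The copies of the shoot apex triad took opposite sides here, with TraesCS4D02G189800 higher in leaf by 1.04 (SE 0.22, adjusted p = 0.000997) and TraesCS4A02G115600 lower in leaf at almost exactly 2-fold (SE 0.20, adjusted p = 0.000569). Both calls lay near 2-fold and were lost without single libraries. The value of TraesCS4D02G189800 was 0.80 without vernalized leaf replicate 1 and 0.92 without vernalized axillary bud replicate 2. The value of TraesCS4A02G115600 was −0.92 without vernalized leaf replicate 2, −0.87 without vernalized axillary bud replicate 2 and −0.28 after median-of-ratios scaling. The other copies higher in leaf than in axillary bud were TraesCS4B02G200000 (1.08, adjusted p = 0.000425) and TraesCS4D02G201100 (1.13, adjusted p = 0.000482), at 0.97 without vernalized leaf replicate 1. Leaf was above shoot apex for 1 copy and below it for 2, against 18.4% and 35.7% (25.8% and 30.3% after that scaling). Axillary bud was above shoot apex for both copies of the fourth triad (2.10 for TraesCS4A02G326300 and 2.35 for TraesCS5B02G539200) and below it for both copies of the shoot apex triad (−1.35 for TraesCS4A02G115600 and −1.48 for TraesCS4D02G189800), against 13.5% and 2.64% of all tested genes. After that scaling these shares were 4.28% and 5.49%, so the balance turned.

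The ratio of the active copies was compared within libraries, where the scale of the library cancels except for the 1 added to each TPM. This addition weighs most at low TPM, and the ratios were not refitted after median-of-ratios scaling. The ratio was tested by limma on the log2 ratio of TPM + 1 over 2831 homoeologue pairs whose members each reached 5 TPM. Positive values mean that the copy of the sub-genome named first was higher. The pair of the third triad has a ratio in vernalized axillary bud alone, where its copies were chosen, and was left out of the counts. Over the 6 groups none of the other 3 member pairs was called and none had an unadjusted p-value under 0.05, against 3.74% of pairs called higher and 4.13% called lower. The ratios were 0.01 for B over D in the leaf-high triad (SE 0.03), −0.08 for A over D in the shoot apex triad (SE 0.05) and −0.00 for A over B in the fourth triad (SE 0.07). The median absolute ratio was 0.01 in these 3 pairs and 0.27 in the 2635 pairs of the 898 triads in which all 3 homoeologues reached 5 TPM. It was 0.55 in the 18 pairs of triads whose remaining homoeologue was detected but under 0.5 TPM in every group (22.2% called). The pair of the fourth triad also occurs among the 2635. Single tissues departed from these means near 0, so the means do not show that the copies were balanced in each tissue. The shoot apex triad entered its mean with leaf ratios near 0, since its copies were at or next to 0 TPM there. With vernalization the ratio was called in 1 of 3 pairs in leaf (lower) and in 0 of 3 in axillary bud and shoot apex. Over all pairs, 6.22% were called higher and 6.46% lower in leaf. For axillary bud these shares were 0.989% and 1.17%, and for shoot apex 0.389% and 0.247%. Before vernalization the ratio was called between leaf and axillary bud in 2 pairs, between axillary bud and shoot apex in 1 and between leaf and shoot apex in 0. The corresponding shares of all pairs were 4.63% higher and 5.12% lower, 1.66% and 1.94%, and 5.44% and 5.86%. At an unadjusted p-value under 0.05, 2 of 9 responses to vernalization and 6 of 9 differences between tissues passed.

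In the leaf-high triad the B copy TraesCS4B02G200000 took 48.6% and 48.0% of the summed TPM of both copies in leaf. Its share was 71.6% and 69.4% in axillary bud. The shoot apex libraries gave it 36.5% and 37.0%. The B copy was thus the higher one in axillary bud and the lower one in shoot apex, with no overlap between these tissues. The log2 ratio was lower in leaf than in axillary bud by 1.08 (−1.08, SE 0.12, adjusted p = 7.55e-05). It was higher in axillary bud than in shoot apex (1.49, SE 0.12, adjusted p = 2.83e-05). In vernalized axillary bud the share of TraesCS4B02G200000 was 53.3% and 53.6%, below both non-vernalized libraries. This change of the log2 ratio was −0.83 (SE 0.12, adjusted p = 0.00184), under 2-fold, and passed it with a pseudocount of 0.1 (−1.03). In vernalized shoot apex the shares were 38.3% and 36.4%, next to those before vernalization.

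In the shoot apex triad the A copy TraesCS4A02G115600 took 58.4% and 59.7% of the summed TPM in shoot apex, and 52.8% and 53.2% in vernalized shoot apex. In vernalized leaf it took 12.8% and 14.6%, the lowest shares of this pair in any group with both copies above 0. The log2 ratio of A over D fell by 1.80 in leaf with vernalization (SE 0.19, adjusted p = 3.9e-05). In leaf before vernalization the copies were at or next to 0, so the change is that of TraesCS4D02G189800 appearing in vernalized leaf without a comparable level of TraesCS4A02G115600. The ratio changed by 0.01 in axillary bud (SE 0.19, adjusted p = 0.987) and by −0.33 in shoot apex (SE 0.19, adjusted p = 0.594).

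In the third triad the B copy TraesCS5B02G146000 took 61.9% and 50.9% of the summed TPM in vernalized axillary bud, and no share exists for the other groups. In the fourth triad the A copy TraesCS4A02G326300 took 69.1% and 68.1% in leaf, but 34.4% and 43.2% in axillary bud and 37.2% and 43.3% in vernalized axillary bud. The A copy was therefore the higher one in leaf and the B copy TraesCS5B02G539200 in axillary bud, and the log2 ratio differed between these tissues by 1.18 before vernalization (SE 0.23, adjusted p = 0.00268). In shoot apex the libraries went opposite ways, with 55.7% and 42.5%. The ratio between leaf and shoot apex was 0.87 (adjusted p = 0.0116), under 2-fold, and was called without shoot apex replicate 1 (1.22) and with a pseudocount of 0.1 (1.14). Vernalization did not change this ratio past the threshold in any tissue, with −0.39 for leaf (adjusted p = 0.186), −0.17 for axillary bud (adjusted p = 0.728) and −0.24 for shoot apex (adjusted p = 0.822), each with an SE of 0.23.

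**Figure D4:**
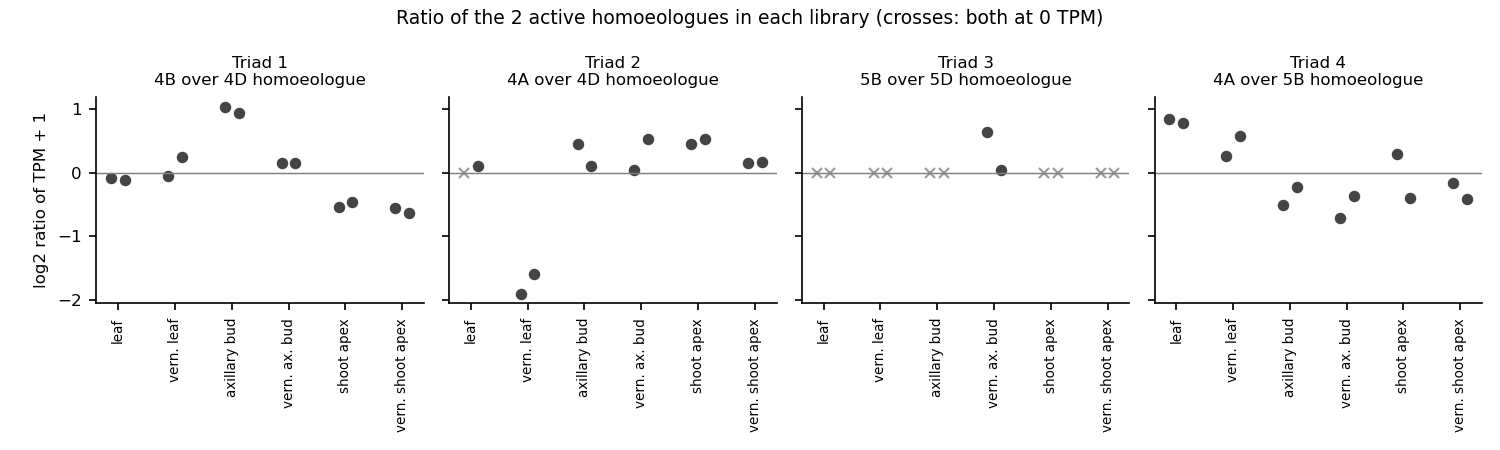
Log2 ratio of TPM + 1 of the active homoeologues (vertical axis) in each library of the 6 groups, with 1 panel per triad and the copies named above it; crosses mark libraries in which both copies are at 0 and carry no ratio. In triad 1 the B over D ratio is highest in axillary bud (about 70% B) and below 0 in shoot apex, in triad 2 the A over D ratio drops in vernalized leaf, and in triad 4 the A over B ratio is above 0 in leaf.

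In each tissue, both active copies received the same call in 1 of the 3 triads whose copies were tested: the leaf-high triad in leaf (both lower), and the fourth triad in axillary bud (both higher) and shoot apex (both lower). In no tissue were the copies called in opposite directions. Among the pairs of fully expressed triads, the same call was given to 66% in leaf, to 12.1% in axillary bud and to 1.25% in shoot apex. With 3 triads these shares are a description only.

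The genes next to the silent copies in the order of their identifiers were examined for runs of genes at 0. Of the 40 genes within 5 identifiers on each side of the 4 silent copies, 2 were at 0 in all 12 libraries (5.0%), against 9 of 80 (11.2%) around the 8 active copies. On the chromosomes of the silent copies, 22.1% of genes on 4A, 16.1% on 4B and 16.3% on 5D were at 0. The 2 neighbours at 0 were TraesCS4B02G188700 and TraesCS5D02G549300, each at place 3 after the silent copy, and the genes directly before and after each silent copy were above 0 in at least 1 library. Of the 40 neighbours, 21 reached 5 TPM in at least 1 group. No run of genes at 0 surrounded any of the silent copies, while the state of the single genes in AK58 was not tested.

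**Figure D5:**
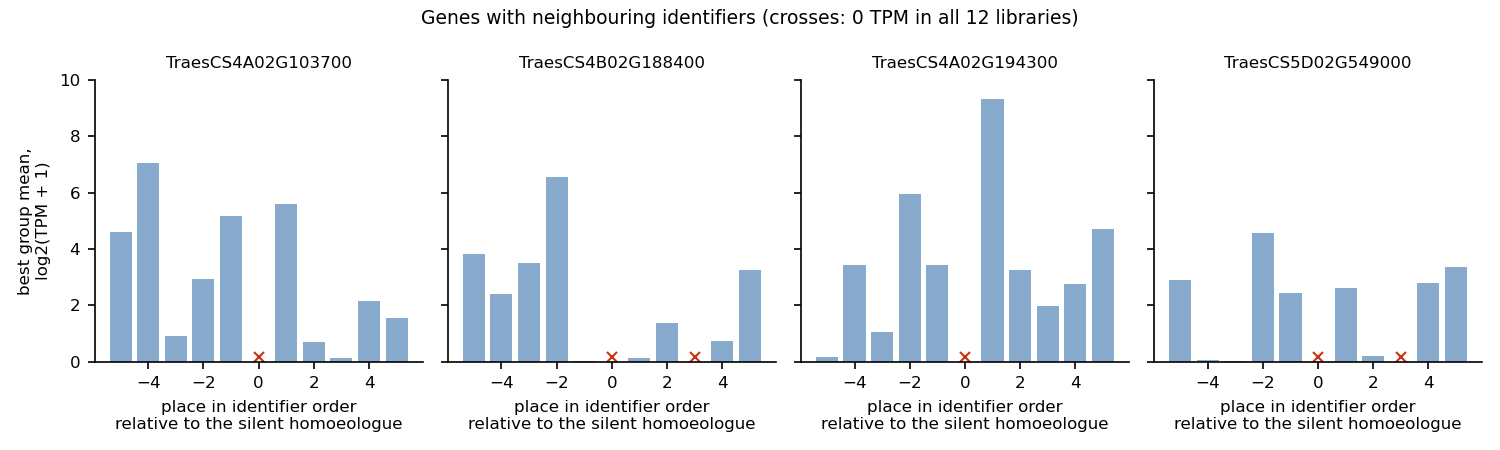
Best group mean, as log2(TPM + 1), of the 5 genes on each side of each silent homoeologue in identifier order; place 0 is the silent copy and red crosses mark genes at 0 TPM in all 12 libraries. Apart from the 4 silent copies, 2 of the 40 neighbours carry a cross. Genes that reached 5 TPM stand on both sides of every silent copy, but the direct neighbours of TraesCS4B02G188400 were below 0.1 TPM in every library.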

How the data were processed

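RNA-seq of 12 libraries was used. The authors used fastp v0.21.0 for trimming, hisat2 for alignment to the IWGSC RefSeq v1.0 genome, SAMtools v1.3.1 for sorting and TPMCalculator for the deposited TPM. TPM are scaled to 1000000 per library and keep no depth, so no counting intervals were given. Libraries had 34465 to 50836 genes above 1 TPM, and replicates correlated at 0.976 to 0.996 (Pearson, log2 scale). The lowest value was that of shoot apex. It lay below the highest correlation of a shoot apex library with a library of another group (0.980). Vernalized shoot apex had the same highest correlation with another group, below its replicate correlation of 0.983.

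Triads were taken as identifier triplets from the part of the study's triad table at hand (1998 rows, 1986 distinct). The class column was not used. Members, tests and alternatives were chosen with earlier results of these data known. All 4 member triads are named.

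Genes with a group mean above 1 TPM were fitted by limma 3.58.1 (R 4.3.3) on log2(TPM + 1), with 6 group means, no replicate term and trended moderation (6 residual degrees of freedom, prior 5.78). Tests were two-sided with Benjamini-Hochberg adjustment over all genes or pairs. The copies of the third triad, which reached 5 TPM in 1 group only, stayed in the fits across all genes and pairs, but none of their tests or their ratio is reported or counted. On simulated data with 200 genes changed, the fit recovered 85.5% of them in leaf, 78.5% of them in axillary bud and 82.5% of them in shoot apex. Python 3.11.15, numpy 2.4.6, pandas 2.3.3 and matplotlib 3.10.9 were used. The alternatives were another pseudocount, other filters, median-of-ratios scaling (factors 0.530 to 1.75), moderation without a trend, a replicate block, fits of subsets, unadjusted p-values under 0.01 and leaving out each library.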

Additional observations from a re-analysis of the deposited data

Results flagged for a closer look

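Called differences of the vernalization response between tissues are listed here as log2 values, each from the test of the difference in the limma model with 2 libraries per group. Where they involve a group through which a copy met the rule, they are partly built into the choice. In the leaf-high triad, the response in leaf was below that in axillary bud (−1.73 for TraesCS4B02G200000 and −2.76 for TraesCS4D02G201100) and below that in shoot apex (−3.07 for TraesCS4B02G200000 and −3.35 for TraesCS4D02G201100). For TraesCS4B02G200000 the response in axillary bud was also below that in shoot apex (−1.34), and its difference between leaf and axillary bud was −0.06 after median-of-ratios scaling (adjusted p = 0.845).

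In the shoot apex triad, the response of TraesCS4D02G189800 in leaf was above that in axillary bud (2.01) and in shoot apex (3.09), and that of TraesCS4A02G115600 in leaf was above that in shoot apex (1.62). The response in axillary bud was above that in shoot apex for TraesCS4A02G115600 (1.42) and TraesCS4D02G189800 (1.07). After median-of-ratios scaling these last values were 1.08 (TraesCS4A02G115600, adjusted p = 0.0786) and 0.75 (TraesCS4D02G189800, adjusted p = 0.209), so neither was called. For TraesCS4D02G189800 the call was also lost without any 1 of 5 libraries, with values between 0.93 and 1.19.

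In the fourth triad, the response in axillary bud was above that in leaf (differences of leaf minus axillary bud −4.13 for TraesCS4A02G326300 and −3.91 for TraesCS5B02G539200). It was also above that in shoot apex (4.46 for TraesCS4A02G326300 and 4.39 for TraesCS5B02G539200).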

How the results depend on the processing

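The number of member triads was 4. It was 9 when the silent copy could have up to 0.1 TPM (A 3, B 2, D 4), 9 when the active copies needed 1 TPM (A 4, B 2, D 3), 3 when they needed 10 TPM, and 2 without triads that share an identifier. Leaving out 1 library gave 4 to 6, with 6 only without vernalized axillary bud replicate 1, when the silent copies were 2 each of A, B and D. The count of called copies in shoot apex was 1 instead of 2 after median-of-ratios scaling and in a fit of each tissue alone, where fewer libraries set the spread. The count of called ratio responses was 2 instead of 1 with a pseudocount of 0.1. With the same pseudocount, the called copies in leaf were 6 instead of 4. The other counts of calls stayed within 1.5 times. For single values, 20 calls were lost and 15 gained over all alternatives, and no called value changed sign. With 10 identifiers on each side, 5.0% of the neighbours of the silent copies were again at 0.

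The replicate numbers were not taken to pair the samples. Of 15 correlations of replicate differences between groups, 5 were above 0.1 (range −0.11 to 0.74). Whether single pairs of groups share a replicate effect was not tested. With a replicate block the counts of called responses were those without it (leaf 4, axillary bud 2, shoot apex 2), and the block changed no other call of the members. The block was a single term common to all groups, so it cannot decide on pairing within a tissue.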
